A study of Mus musculus with 19 samples.

Results

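The interaction of genotype and exposure is the difference between exposed and naive lavage cells in ICAM-1 null mice minus the same difference in wild type mice, on the log2 scale, where the exposure was to bacterial particles. It was estimated for every gene from all 19 libraries of the series. Of 56941 genes in the deposited tables, 20501 passed the filter on low counts and were tested. A positive value means that the null response lay above the wild type response, which can be a larger rise or a smaller fall. A gene is said to be called, and its response to be larger or smaller, at an adjusted p under 0.05 in edgeR's quasi-likelihood F test (two-sided, Benjamini-Hochberg over the 20501 genes). Adjusted p-values without another name are from that test.

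The wild type mice were C57Bl/6J and the others were ICAM-1 null, and all were females of 7 to 8 weeks. Naive mice made up 2 groups, wild type (n = 4) and null (n = 5). Exposed mice made up the other 2 groups, wild type (n = 5) and null (n = 5). They had received 100 µL of pHrodo S. aureus bioparticles at 2.27 mg/mL, placed in the oropharynx under isoflurane, and were lavaged after 1 h. pHrodo is a dye that brightens in acid compartments such as the phagosome. The labels do not say if naive mice were given vehicle or anaesthetic, what background the null line has, or if littermates were used. An effect of losing ICAM-1 and an effect of anything else that differs between the 2 lines therefore cannot be told apart. The sequenced RNA was that of pelleted cells from bronchoalveolar lavage, labelled alveolar macrophages, with no sort described.

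ICAM-1 is an adhesion molecule of the immunoglobulin superfamily whose cytoplasmic tail binds actin linkers such as ezrin and whose outer domains bind the leukocyte integrins LFA-1 and Mac-1. It is strongly induced through NF-kB in many cells, endothelium, epithelium and macrophages among them. Alveolar macrophages are the resident phagocytes of the airspace. When they take up bacteria, receptors at the surface and in the phagosome switch on cytokine, chemokine and survival genes within the first hour, and feedback genes then limit that program.

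Depth ranged from 32.8 to 80.3 M estimated counts, and the wild type naive group held both extremes, with 3 of its 4 libraries the shallowest of the series. A check of the libraries assumed 4 estimated counts per fragment, which no source used here gives. Depth in fragments may thus be lower, and low counts may rest on few fragments. In every library 33 alveolar macrophage markers summed to 38427 to 50207 TPM, a level scaled for transcript length and library total. Other cells were also present. In exposed wild type libraries the summed erythroid and platelet markers were 380 to 2413 TPM and the epithelial markers 1731 to 4129 TPM, against 140 to 358 TPM and 1000 to 1697 TPM in exposed null libraries, with no overlap between the groups in either list. In bulk RNA, fewer cells of a type and less RNA per cell cannot be told apart.

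The interaction was called for 68 genes, 0.332% of those tested. The null response lay above the wild type response for 37 genes (0.18%) and below it for 31 (0.151%). An absolute log2 interaction of at least 1 was found in 42 of the 68 (0.205% of tested genes). At an unadjusted p under 0.05 there were 2019 genes (9.85%). Over all tested genes the median interaction was -0.03, 11122 of the 20501 values were below 0, and the middle 90% lay between -1.43 and 1.13. With DESeq2's Wald test 240 genes were called, among them all 68, and with limma voom 25, of which 24 were among the 68. On the log2(TPM + 1) scale limma called 110, 75 above and 35 below. With another scaling in edgeR the calls above and below were 37 and 27 (DESeq2 size factors), 36 and 22 (upper quartile factors) and 38 and 27 (library totals). In naive mice the fitted level was higher in null than in wild type for 27 of the 31 genes called lower, and lower in null for 28 of the 37 called higher. These shares describe the contrast that made the calls.

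**Figure D1:**
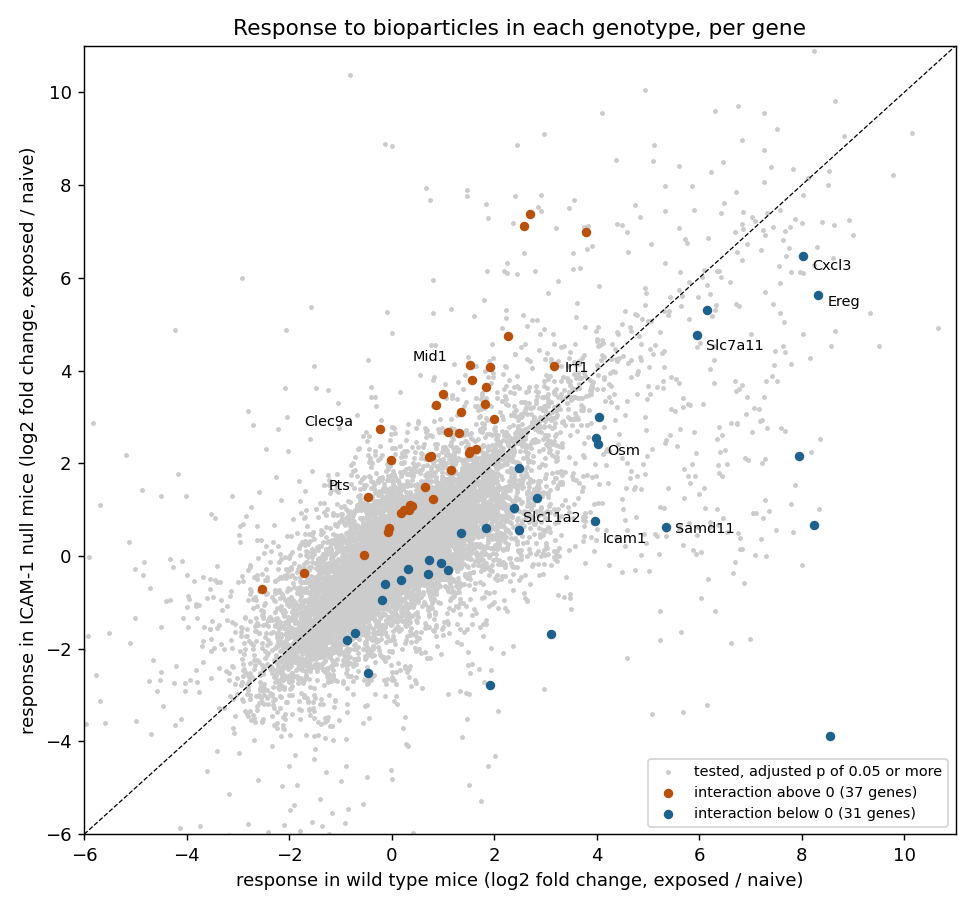
Log2 fold change on exposure in wild type mice (x axis) and in ICAM-1 null mice (y axis). Each point is 1 tested gene, orange points are the 37 genes with an interaction above 0, blue points the 31 below 0, and the dashed line marks equal responses. Icam1 lies at 3.97 on the x axis and 0.75 on the y axis, and 69 tested genes lie beyond the axes.

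The targeted gene gave the smallest p of all. Icam1 (ENSMUSG00000037405.9, chromosome 9, 20927281 to 20940113, GRCm39) was at 81.4, 85.9, 63.8 and 67.2 TPM in wild type naive libraries and at 11.5, 9.52, 8.40, 4.88 and 6.29 TPM in null naive libraries. Exposed libraries held 962, 749, 1079, 982 and 722 TPM in wild type and 13.2, 9.71, 9.48, 11.6 and 9.91 TPM in null mice. Every null library, naive or exposed, lay below every wild type library. The log2 response was 3.97 (SE 0.20) in wild type and 0.75 (SE 0.17) in null mice (interaction -3.21, SE 0.25, adjusted p = 6.6e-07). Gm47079, a non-coding gene on the opposite strand that overlaps the end of Icam1 (chromosome 9, 20939603 to 20943653), was called with it (-4.79, SE 0.57, adjusted p = 2.0e-04) at 0.119 to 0.552 TPM in wild type naive and 1.67 to 4.11 TPM in null naive libraries. Reads of these overlapping genes may be shared, since no source used here gives the strand setting of the counting.

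The called members of the list of cytokines and chemokines and of the list of EGF family ligands were Osm, Cxcl3, Ccl22 and Ereg, all with a smaller response in null mice. In each, every exposed library of either genotype lay above every naive library. Osm encodes oncostatin M, a cytokine of the IL-6 family. It was at 16.2, 12.4, 18.7 and 15.6 TPM in wild type naive and at 9.54, 8.76, 7.75, 7.94 and 12.7 TPM in null naive libraries. After exposure it reached 151, 138, 231, 195 and 256 TPM in wild type but 37.8, 43.8, 34.2, 44.0 and 34.0 TPM in null libraries. The exposed groups did not overlap (chromosome 11, 4186420 to 4191026; interaction -1.61, SE 0.24, adjusted p = 0.0022).

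Ereg encodes epiregulin, a ligand of the EGF receptor. It was at 0.236, 0.471, 0.359 and 1.12 TPM in wild type naive and 1.33, 1.12, 0.964, 0.554 and 1.32 TPM in null naive libraries, near the bottom of the range in both. In exposed mice the levels were 191, 216, 147, 122 and 93.8 TPM in wild type and 68.9, 49.95, 23.0, 30.2 and 32.2 TPM in null libraries, again with no overlap (interaction -2.70, SE 0.50, adjusted p = 0.018). Without wild type naive library 1, 2 or 3 its adjusted p was 0.051, 0.055 and 0.055. Ereg lies on chromosome 5 within 1 Mb of the other called gene Cxcl3 (chromosome 5, 90933962 to 90937459), which encodes a chemoattractant for neutrophils. Cxcl3 was at 3.58, 6.44, 6.81 and 7.49 TPM in wild type naive and at 11.9, 10.9, 10.9, 10.4 and 11 TPM in null naive libraries. At 1 h the wild type libraries stood at 1211, 941, 1122, 1283 and 1325 TPM and the null libraries at 954, 691, 503, 578 and 869.6 TPM. The log2 response was 8.02 (SE 0.25) in wild type and 6.48 (SE 0.21) in null mice (interaction -1.55, SE 0.26, adjusted p = 0.0074). For Cxcl3 the naive null libraries lay above the naive wild type libraries and the exposed groups overlapped only in null library 1.

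Ccl22, a chemokine that attracts cells bearing CCR4, had a higher level in naive null than in naive wild type libraries. It was at 10.4, 12.2, 13 and 12.5 TPM in wild type naive and 21.0, 36.5, 25.1, 27.1 and 26.4 TPM in null naive libraries, with no overlap. After exposure it was at 161, 139, 135, 186 and 139 TPM in wild type and 153, 180.2, 152, 169 and 196 TPM in null libraries, which overlapped. Its interaction (-1.04, SE 0.19, adjusted p = 0.014) thus came with overlapping exposed levels.

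The list of cytokines and chemokines held 38 tested genes, of which 3 were called (7.89%, against 0.332% of all tested genes). All 3 were lower in null (Osm, Cxcl3 and Ccl22), and 0 were higher. The list had a median interaction of -0.51 against -0.03 over all genes, and 11 members were above 0 (28.9%, against 45.7% of all tested genes). An unadjusted p under 0.05 was found in 19 (50%, against 9.85% of all tested genes). Members that were not called included Ccl4 (-1.68, SE 0.38, adjusted p = 0.064), Lif (-1.33, SE 0.33, adjusted p = 0.098) and Cxcl1 (-1.68, SE 0.42, adjusted p = 0.10). Tnf was at 8822 ± 1312 TPM in exposed wild type and 7775 ± 1672 TPM in exposed null libraries (SD), with an interaction of -0.66, SE 0.23, adjusted p = 0.29. Il6 went the other way without passing (2.02, SE 0.55, adjusted p = 0.14), from 0.522 ± 0.291 to 38.7 ± 6.83 TPM in wild type and from 0.311 ± 0.287 to 78.1 ± 26.9 TPM in null libraries. Of 17 EGF family ligands and shedding genes 1 was called (5.88%, against 0.332% of all tested genes), Ereg. Its relative Areg, encoding amphiregulin, was not (-1.60, SE 0.46, adjusted p = 0.18).

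The exposed groups also differed in other cells' markers, as given above, beside these 4 genes. With epithelial and erythroid marker scores as covariates Osm kept its call at -1.56 (adjusted p = 0.033), while Ereg, Cxcl3 and Ccl22 did not, at -1.93 (adjusted p = 0.21), -1.28 (adjusted p = 0.17) and -0.94 (adjusted p = 0.17). Of the 15 settings other than leaving out 1 library, calls held in 14 (Osm), 12 (Ereg), 12 (Cxcl3) and 11 (Ccl22). Ereg, Cxcl3 and Ccl22 were not called with limma voom. Exposed wild type library 3 had the lowest erythroid and epithelial sums of its group (380 and 1731 TPM), still above every exposed null library. That library held Osm at 231 TPM, Ereg at 147 TPM and Cxcl3 at 1122 TPM. These 3 values lay above every exposed null library. The same library held Ccl22 at 135 TPM, the lowest of its group and below every exposed null library. Since the exposed groups did not overlap in either sum, these values cannot separate genotype from other cells. The part of other cells in these 4 differences was not tested.

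**Figure D2:**
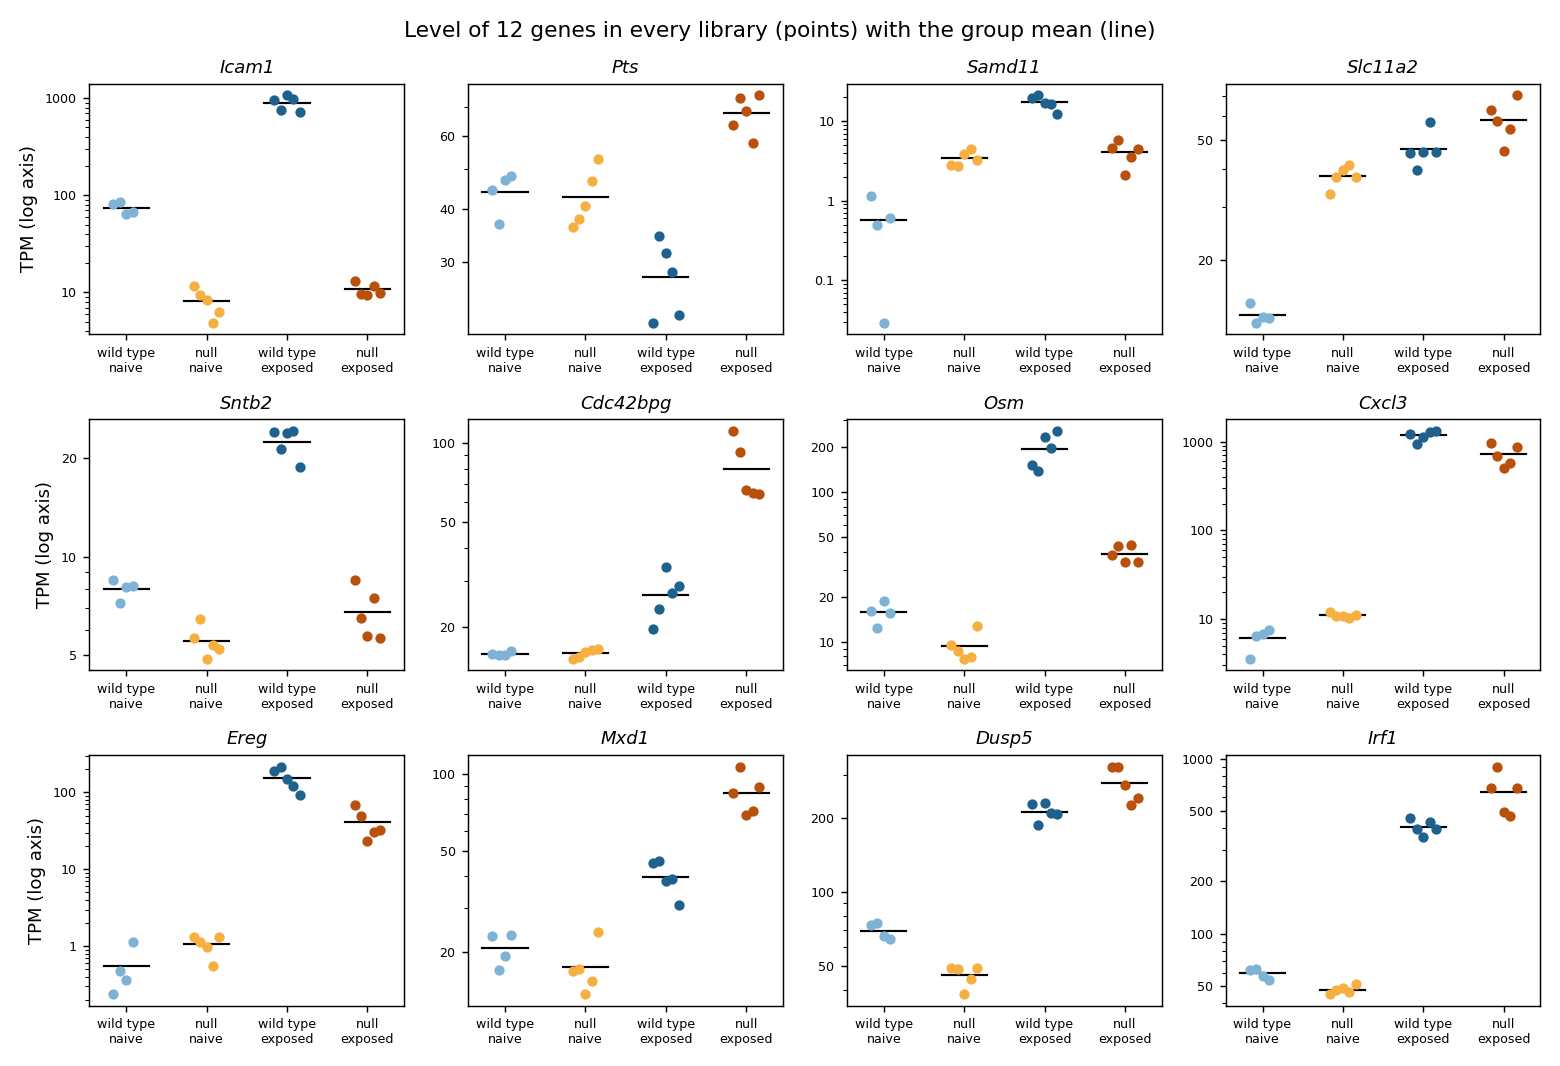
Level in TPM (log axis, scaled for each gene) of 12 called genes in the 4 groups. Points are libraries and lines are group means. Icam1 and Osm separate the exposed groups with wild type above null, while Pts, Cdc42bpg and Mxd1 separate them with null above wild type.

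Called genes with a smaller null response also included carriers and receptors. Slc11a2 encodes DMT1, the carrier that imports ferrous iron. It was at 14.4, 12.4, 12.9 and 12.9 TPM in wild type naive and 33.2, 37.5, 39.8, 41.2 and 37.7 TPM in null naive libraries. Exposed libraries held 45.2, 39.6, 45.5, 57.5 and 45.7 TPM in wild type and 62.7, 57.9, 45.8, 54.2 and 70.4 TPM in null mice. The groups did not overlap before exposure and did overlap after it (interaction -1.34, SE 0.16, adjusted p = 2.0e-04). Tfrc, the transferrin receptor, had a naive level of 13.1 ± 5.10 TPM in wild type and 52.7 ± 10.3 TPM in null libraries and was not called (-1.16, SE 0.28, adjusted p = 0.096).

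Slc7a11, the cystine carrier that feeds glutathione synthesis, was at 2.99, 3.15, 2.36 and 4.04 TPM in wild type naive and 5.78, 12.5, 8.89, 9.56 and 10.6 TPM in null naive libraries. In exposed mice the levels were 182, 132, 153, 170.5 and 157 TPM in wild type and 216, 238, 175, 187 and 241 TPM in null libraries, and 4 of the 5 null libraries lay above every wild type library. Its log2 response was still smaller in null mice (-1.19, SE 0.25, adjusted p = 0.040). It was the 1 called gene of 27 NRF2 targets and metallothioneins (3.70%, against 0.332% of all tested genes, median -0.12). Clec4e is the receptor Mincle for microbial and self glycolipids. It was the 1 called gene of 34 phagocytic and scavenger receptors (2.94%, against 0.332% of all tested genes). Its log2 response was 6.16 (SE 0.17) in wild type and 5.30 (SE 0.15) in null mice (-0.86, SE 0.18, adjusted p = 0.044), from 13 ± 3.43 to 789 ± 107 TPM and from 19.5 ± 3.01 to 647 ± 79.0 TPM. H2-M2, a non-classical MHC class I gene, went from 0.754 ± 0.226 to 9.62 ± 1.98 TPM in wild type and from 3.17 ± 0.530 to 14.1 ± 2.44 TPM in null libraries (-1.45, SE 0.31, adjusted p = 0.044). Klrb1b, a lectin-like receptor gene of the natural killer complex, stood at 12.9 to 22.8 TPM in null naive against 6.40 to 7.66 TPM in wild type naive libraries (-1.09, SE 0.24, adjusted p = 0.047). When each of the 19 libraries was left out in turn, the calls of Slc7a11, H2-M2 and Klrb1b held in 4 fits each and that of Clec4e in 5, with adjusted p up to 0.12.

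A further set of named genes had a clear response in wild type and a smaller one in null mice. Samd11, which encodes a SAM domain protein of the nucleus, was at 1.15, 0.496, 0.0294 and 0.610 TPM in wild type naive and 2.85, 2.75, 3.82, 4.48 and 3.28 TPM in null naive libraries. At 1 h the wild type libraries stood at 19.4, 21.3, 17.2, 16.3 and 12.2 TPM and the null libraries at 4.57, 5.86, 2.09, 3.51 and 4.45 TPM, so the order of the genotypes turned over (chromosome 4, 156331423 to 156340717; interaction -4.74, SE 0.55, adjusted p = 2.0e-04). Wild type naive library 3, at 2 estimated counts, was far below the rest of its group, and the call held in all 19 fits that left out 1 library. Samd11 overlaps Noc2l on the opposite strand. Noc2l was far more abundant, at a mean of 93.2 to 116 TPM in the 4 groups, and its own interaction was 0.25.

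Sntb2, which encodes a syntrophin that ties the dystrophin complex to signalling proteins, was at 8.50, 7.22, 8.12 and 8.12 TPM in wild type naive and 5.65, 6.45, 4.89, 5.37 and 5.23 TPM in null naive libraries. After exposure it was at 24.1, 21.4, 23.9, 24.2 and 18.8 TPM in wild type and 8.52, 6.50, 5.75, 7.48 and 5.66 TPM in null libraries (interaction -1.22, SE 0.16, adjusted p = 3.5e-04). Ppp1r12b, a regulatory subunit of myosin phosphatase, was at 34.4, 32.2, 29.2 and 37.8 TPM in wild type naive and 20.1, 20.8, 18.2, 17.8 and 18.2 TPM in null naive libraries. Exposed libraries held 62.0, 63.7, 82.1, 69.2 and 67.4 TPM in wild type and 20.8, 19.6, 23.6, 16.6 and 21.7 TPM in null mice (-0.86, SE 0.12, adjusted p = 6.1e-04). For both genes the null libraries lay below the wild type libraries at each time, and the gap was wider after exposure. Fstl1, a secreted glycoprotein, and Fam167a started higher in null mice. Fstl1 went from 0.907 ± 0.308 to 4.10 ± 2.35 TPM in wild type and from 7.75 ± 2.59 to 9.12 ± 2.43 TPM in null mice (-1.92, SE 0.39, adjusted p = 0.033), and its call held in 10 of the 19 fits. Fam167a went from 0.639 ± 0.134 to 3.59 ± 1.29 TPM and from 3.37 ± 0.955 to 6.27 ± 1.14 TPM (-1.59, SE 0.33, adjusted p = 0.041), and held in 6.

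Genes with a larger null response included regulators of transcription and of MAP kinase signalling. Irf1, a transcription factor that drives interferon-responsive genes, was at 62.4, 62.8, 57.6 and 54.6 TPM in wild type naive and 45.0, 47.9, 48.8, 46.6 and 51.6 TPM in null naive libraries. In exposed mice the levels were 461, 395, 356, 435 and 396 TPM in wild type and 677, 898, 495, 470.0 and 675 TPM in null libraries (0.93, SE 0.19, adjusted p = 0.040). Each exposed null library lay above each exposed wild type library. The call held in 5 of the 19 fits, with adjusted p up to 0.098. Irf1 was the 1 called gene of 51 interferon-stimulated genes and IRFs (1.96%, against 0.332% of all tested genes, median -0.05). Of these, 22 were above 0 (43.1%, against 45.7% of all tested genes).

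Dusp5, a nuclear phosphatase that inactivates ERK, was at 73.2, 74.7, 66.1 and 64.7 TPM in wild type naive and 49.1, 48.6, 38.4, 44.4 and 49.2 TPM in null naive libraries. At 1 h the wild type libraries stood at 228, 187, 230.1, 209.8 and 207 TPM and the null libraries at 322, 324, 272, 227 and 242 TPM (0.96, SE 0.14, adjusted p = 0.0015). The naive groups did not overlap, with null below wild type, and the exposed groups overlapped with a higher mean in null. It was the 1 called gene of 40 immediate-early genes and MAPK phosphatases (2.5%, against 0.332% of all tested genes, median -0.04). Mxd1, which competes with MYC for the partner MAX, was at 23.3, 17.1, 19.4 and 23.3 TPM in wild type naive and 16.9, 17.2, 13.7, 15.4 and 24 TPM in null naive libraries, which overlapped. After exposure it was at 44.8, 45.7, 38.0, 38.7 and 30.6 TPM in wild type and 84.5, 107, 69.2, 71.8 and 88.8 TPM in null libraries, with no overlap (1.33, SE 0.20, adjusted p = 0.0021).

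NF-kB is a well known route to inflammatory genes, so its recognition letters were looked for in promoter windows of 300 bases (250 before to 50 after the start of transcription) given by RefSeq for GRCm38.p6, an older build than that of the deposited tables. Of the 68 called genes 44 had a window. The letters searched were GGGA, any 4 bases and CC, or GGG, any 3 bases and TTCC, on both strands, and the matches may overlap. They were found in 23.0% of all 32851 windows. They occurred in 10 of 31 windows of 24 genes with a larger null response (32.3%). For genes with a smaller one it was 5 of 24 windows of 20 genes (20.8%). Some genes have several windows, so windows are not separate genes. The following windows are shown because they belong to 2 chemokine genes with a smaller and 2 regulators with a larger null response, and all hold the letters, which are in capitals and may be read on the opposite strand. A match is no evidence of binding.
Cxcl3 (chr5:90785851-90786150, strand +): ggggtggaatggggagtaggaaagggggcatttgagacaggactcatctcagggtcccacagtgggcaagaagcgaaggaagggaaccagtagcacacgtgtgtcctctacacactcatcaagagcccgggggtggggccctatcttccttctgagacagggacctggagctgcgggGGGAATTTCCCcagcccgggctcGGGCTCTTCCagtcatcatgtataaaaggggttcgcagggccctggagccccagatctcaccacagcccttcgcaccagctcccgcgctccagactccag
Ccl22 (chr8:94745434-94745733, strand +): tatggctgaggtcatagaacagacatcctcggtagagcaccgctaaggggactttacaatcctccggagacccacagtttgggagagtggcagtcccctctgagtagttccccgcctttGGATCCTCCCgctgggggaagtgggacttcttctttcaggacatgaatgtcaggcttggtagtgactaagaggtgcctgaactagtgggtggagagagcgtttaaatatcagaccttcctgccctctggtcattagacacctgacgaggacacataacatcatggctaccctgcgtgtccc
Irf1 (chr11:53769764-53770063, strand +): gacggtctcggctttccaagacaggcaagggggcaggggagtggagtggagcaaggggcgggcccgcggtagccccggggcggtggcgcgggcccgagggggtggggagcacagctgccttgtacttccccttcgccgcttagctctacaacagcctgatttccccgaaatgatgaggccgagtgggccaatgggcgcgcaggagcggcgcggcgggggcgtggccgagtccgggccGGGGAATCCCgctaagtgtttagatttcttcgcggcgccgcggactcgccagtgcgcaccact
Dusp5 (chr19:53528895-53529194, strand +): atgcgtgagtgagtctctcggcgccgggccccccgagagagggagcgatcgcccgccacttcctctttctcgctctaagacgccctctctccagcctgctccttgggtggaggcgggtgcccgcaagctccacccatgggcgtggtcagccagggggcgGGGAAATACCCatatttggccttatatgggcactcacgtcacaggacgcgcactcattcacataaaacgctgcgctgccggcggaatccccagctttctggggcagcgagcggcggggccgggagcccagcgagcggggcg
The Irf1 window is the first of several in the table. The window of Icam1 held neither form of these letters, and Osm, Ereg and Slc11a2 had no window. Both forms begin with GGG, and forms without it were not searched, so a window without a match may still hold a site. The list of 29 NF-kB components and feedback genes had 0 called members by edgeR's test, against 0.332% of all tested genes. The median interaction of the list was 0.05. Of its members 4 had an unadjusted p under 0.05 (13.8%, against 9.85% of all tested genes).

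Pts gave the second smallest p. It encodes 6-pyruvoyltetrahydropterin synthase, which acts after Gch1 on the way to tetrahydrobiopterin, the cofactor of nitric oxide synthases. It was at 44.5, 37.0, 47.0 and 48.1 TPM in wild type naive and 36.4, 37.9, 40.7, 46.7 and 52.7 TPM in null naive libraries, which overlapped. Exposed libraries held 21.5, 34.5, 31.4, 28.4 and 22.5 TPM in wild type and 63.6, 73.7, 68.7, 57.6 and 74.9 TPM in null mice, with no overlap. The log2 response was -0.46 (SE 0.10) in wild type and 1.26 (SE 0.10) in null mice (chromosome 9, 50432917 to 50440024; interaction 1.73, SE 0.14, adjusted p = 7.8e-07). Gch1 had log2 responses of 2.77 (SE 0.11) and 2.97 (SE 0.10) and was not called (0.20, SE 0.14, adjusted p = 0.71). Alg9, a mannosyltransferase of N-glycan assembly within 1 Mb of Pts, was called in the same direction, at 17.7 ± 2.71 TPM in exposed wild type and 31.6 ± 3.41 TPM in exposed null libraries (0.74, SE 0.15, adjusted p = 0.032). Its call held in 12 of the 19 fits.

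Cdc42bpg, a kinase downstream of CDC42 that acts on actomyosin, had nearly the same level in both naive groups, 15.7, 15.6, 15.6 and 16.2 TPM in wild type and 15.2, 15.3, 16.1, 16.3 and 16.5 TPM in null libraries. In exposed mice the levels were 19.7, 23.4, 33.7, 26.9 and 28.7 TPM in wild type and 111, 92.8, 66.5, 64.5 and 64.1 TPM in null libraries, with no overlap (1.56, SE 0.20, adjusted p = 3.5e-04). Of the 68 calls, those of Pts, Samd11, Cdc42bpg and Mxd1 held under all 34 alternative settings. Icam1 was lost in 1, which leaves it out by design. Pfkfb3, which makes the activator of phosphofructokinase, went from 16.7 ± 1.70 to 30.0 ± 3.53 TPM in wild type and from 15.2 ± 2.41 to 43.8 ± 6.51 TPM in null mice (0.71, SE 0.14, adjusted p = 0.032). It was the 1 called gene of 30 glycolysis and HIF-1 targets (3.33%, against 0.332% of all tested genes, median 0.03). Its call held in 10 of the 19 fits.

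Proz and C4a are named for plasma protein cascades, but the deposited annotation labels C4a as a long non-coding RNA. Proz encodes protein Z, a vitamin K-dependent cofactor for the inhibition of factor Xa. It was at 6.67, 10.5, 12.2, 10.8 and 9.70 TPM in exposed wild type and 30.9, 35.9, 16.9, 22 and 18.5 TPM in exposed null libraries (1.75, SE 0.25, adjusted p = 0.0015). Its naive levels were 4.35 to 5.86 TPM in wild type and 3.34 to 4.40 TPM in null libraries. Gm17022 and Cul4a beside it on chromosome 8 were called in the same direction, and these calls held in 4 and 2 of the 19 fits. C4a, of the complement C4 family, was at 1.34, 0.991, 3.08, 2.36 and 2.58 TPM in exposed wild type and 16.1, 9.69, 7.02, 7.16 and 7.27 TPM in exposed null libraries (2.38, SE 0.37, adjusted p = 0.0025). Its near-identical copy C4b was not called (-0.47), and reads may be split between them. Stk19, which overlaps Dxo and lies beside C4a, was at 40.8, 43.0, 49.8, 47.9 and 45.4 TPM in exposed wild type and 70.1, 66.9, 62.1, 64.2 and 76.5 TPM in exposed null libraries (0.75, SE 0.11, adjusted p = 0.0015).

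Clec9a is a receptor for dead cells that marks the cross-presenting dendritic cell. It was the 1 called gene of 15 dendritic cell markers (6.67%, against 0.332% of all tested genes, median -0.08). It was at 3.23, 2.96, 3.90 and 6.44 TPM in wild type naive and 0.805, 0.382, 0.525, 0.424 and 0.452 TPM in null naive libraries. At 1 h the wild type libraries stood at 1.96, 3.64, 1.85, 2.19 and 2.34 TPM and the null libraries at 5.32, 4.12, 0.850, 2.05 and 1.21 TPM, which overlapped (2.96, SE 0.54, adjusted p = 0.015). The genotypes did not overlap in naive mice and overlapped after exposure. The fitted log2 response of Clec9a was -0.23 (SE 0.38) in wild type and 2.73 (SE 0.39) in null mice. The summed dendritic cell markers lay between 961 and 1259 TPM in all 19 libraries.

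Other genes with a larger null response had the following values. Eldr, a non-coding RNA gene beside Egfr, went from 1.23 ± 0.542 to 11.6 ± 5.73 TPM in null and from 1.17 ± 0.495 to 2.10 ± 0.710 TPM in wild type mice (2.48, SE 0.49, adjusted p = 0.026). Its call was lost without wild type naive library 3 or 4, null naive library 2 or 4, or null exposed library 2 (adjusted p 0.053 to 0.068). Zdhhc18, a palmitoyltransferase, was at 42.5 ± 6.92 TPM in exposed null and 18.5 ± 2.22 TPM in exposed wild type libraries (0.74, SE 0.14, adjusted p = 0.022). Without wild type naive library 1 or 3 its adjusted p was 0.0705 and 0.0697. Tspoap1, a scaffold that binds the mitochondrial protein TSPO, was at 21.7 ± 7.42 against 7.17 ± 1.66 TPM (1.47, SE 0.31, adjusted p = 0.041) and held in 4 of the 19 fits. Unc45a, a chaperone of myosin, was at 57.7 ± 10.6 against 34.6 ± 6.04 TPM (0.85, SE 0.18, adjusted p = 0.041) and held in 6. Chosen after their values were seen, Gtf2b, Rhob and Il17ra were also called. Gtf2b, a general transcription factor, had an interaction of 0.68, SE 0.12, adjusted p = 0.014, and its call held in 19 of the 19 fits. Rhob, an early-response GTPase, had 0.73, SE 0.15, adjusted p = 0.032, and its call held in 10. Il17ra, the receptor of IL-17A, was lower in null naive mice (97.5 ± 8.95 against 149 ± 7.15 TPM) and at 158 ± 23.8 against 148 ± 15.8 TPM after exposure (0.66, SE 0.13, adjusted p = 0.026), and its call held in 13. The fitted log2 response of Il17ra was 0.34 (SE 0.10) in wild type and 1.00 (SE 0.09) in null mice.

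The remaining called genes were named after their values were seen. Nectin1, an adhesion molecule of the immunoglobulin superfamily like ICAM-1, was at 0.798, 0.794, 0.914 and 0.736 TPM in wild type naive and 3.49, 2.40, 3.40, 4.22 and 3.90 TPM in null naive libraries, with no overlap. Exposed means were 1.35 ± 0.216 TPM in wild type and 2.21 ± 0.529 TPM in null mice, and the smaller response in null (-1.40, SE 0.25, adjusted p = 0.015) was called in 19 of the 19 fits that left out 1 library and in 9 of the 15 other settings. Apobec1, a cytidine deaminase that edits RNA, went from 65.5 ± 3.11 to 58.9 ± 9.95 TPM in wild type and from 75.6 ± 3.68 to 40.7 ± 6.19 TPM in null mice (-0.71, SE 0.14, adjusted p = 0.026). The fitted log2 response was 0.18 (SE 0.10) in wild type, where the mean TPM fell, and -0.53 (SE 0.09) in null mice. Acap1, an activator of ARF GTPases, was lower in null mice at each time, 10.4 ± 0.919 against 36.0 ± 4.59 TPM in naive and 12.9 ± 0.627 against 26.2 ± 1.68 TPM in exposed libraries, with a larger null response (0.66, SE 0.13, adjusted p = 0.030). Its fitted log2 response was -0.06 (SE 0.10) in wild type and 0.60 (SE 0.09) in null mice. The CDC42 effector gene Cdc42ep4 (0.70) and Pdlim7 (0.69), whose protein binds actin filaments, also had log2 interactions above 0, and a lower naive mean in null mice. Interactions above 0 were also found for Cul4a (0.59), the scaffold of a ubiquitin ligase, Tssc4 (0.57) and the RNA-binding protein gene Sfpq (0.42). Rab40c (-0.75) and Pdik1l (-0.92) had log2 interactions below 0. With 1 library left out, calls held in 14 (Apobec1), 9 (Acap1), 16 (Cdc42ep4), 5 (Pdlim7), 2 (Cul4a), 3 (Tssc4), 3 (Sfpq), 5 (Rab40c) and 16 (Pdik1l) of the 19 fits, and wild type naive library 1 or 2 was among the libraries without which each of these was lost. Among non-coding or predicted genes, Gm43305 was at 14.2 to 28 TPM in exposed wild type and 87.8 to 168 TPM in exposed null libraries (2.16, SE 0.30, adjusted p = 9.2e-04). Gm42031 (2.23), Gm26510 (2.08) and Gm26642 (1.81) were called in the same direction, and in Gm26642 both genotypes had a negative log2 response.

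**Figure D3:**
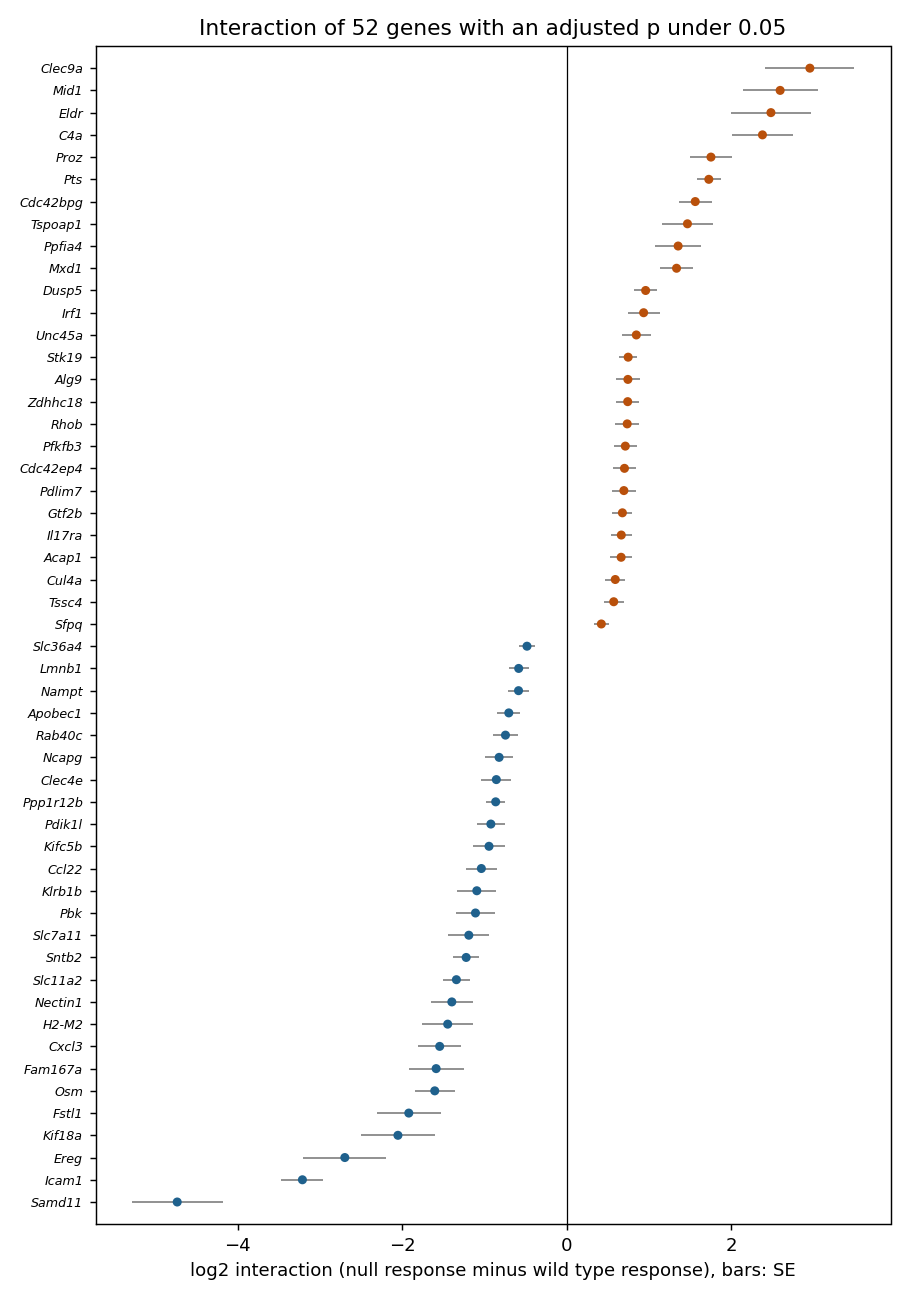
Log2 interaction (x axis) with its SE for the 52 called genes that are not predicted genes or pseudogenes and reach a mean of 1 TPM in the highest group. Positive values mean that the null response lies above the wild type response, and values run from Samd11 at -4.74 to Clec9a at 2.96.

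A block of 7 called genes, all with a larger null response, lay at the ends of chromosomes X and Y, where near-identical sequence is shared. The members were chosen for display after their values were seen, except Mid1. Mid1 encodes a ubiquitin ligase bound to microtubules and in the laboratory mouse spans the boundary of the pseudoautosomal region. It was at 9.31, 7.29, 8.80 and 10.5 TPM in wild type naive and 5.52, 3.06, 5.38, 5.55 and 6.99 TPM in null naive libraries. After exposure it was at 16.6, 26.8, 27.7, 28.3 and 16.9 TPM in wild type and 142, 106, 67.5, 125 and 23.5 TPM in null libraries (chromosome X, 168468195 to 168788732; interaction 2.59, SE 0.45, adjusted p = 0.011). Exposed null library 5 stood within the wild type range and the other exposed null libraries were above it. In G530011O06Rik the same null library was the lowest of its group, with 19.5, 10.6, 9.92, 14.2 and 17.5 TPM in exposed wild type and 225, 161, 139.6, 139.8 and 31.5 TPM in exposed null libraries (4.68, SE 0.60, adjusted p = 3.5e-04). The other members on X were Gm15726 (3.20) and Gm55594 (1.41), and on Y they were Gm47283 (1.40), Gm21742 (4.54) and Mid1-ps1 (2.48). With 1 library left out, the calls held in 19 (Mid1), 19 (G530011O06Rik), 4 (Gm15726), 19 (Gm55594), 19 (Gm47283), 17 (Gm21742) and 3 (Mid1-ps1) of the 19 fits. All mice were female per the labels, and the Y genes Kdm5d, Eif2s3y, Ddx3y and Uty held 8 to 176 counts in each library. Reads of such copies may be shared among them, so the 7 calls are not separate observations.

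Genes of mitosis had log2 interactions mostly below 0. Of 44 cell cycle and proliferation genes 0 were called by edgeR, 42 were below 0 and the median was -0.34. Over all tested genes 11122 of 20501 were below 0 and 0.332% were called. An unadjusted p under 0.05 was found in 22 of the 44 (50%), against 9.85% of all tested genes. Outside that list, Pbk, a mitotic kinase, went from 6.50 ± 1.64 to 9.80 ± 1.36 TPM in wild type and from 12.3 ± 2.15 to 8.65 ± 1.98 TPM in null mice (-1.11, SE 0.24, adjusted p = 0.046). Kifc5b, a kinesin, went from 7.60 ± 0.832 to 3.40 ± 0.876 TPM and from 8.35 ± 0.753 to 2.01 ± 0.206 TPM (-0.95, SE 0.19, adjusted p = 0.039). Named after their values were seen, the condensin subunit Ncapg (-0.82, SE 0.17, adjusted p = 0.040), the kinesin Kif18a (-2.05, SE 0.44, adjusted p = 0.047) and the lamin Lmnb1 (-0.58, SE 0.12, adjusted p = 0.040) were also called. The naive mean was higher in null mice in these 5, as it was in most genes called lower. Calls held in 4 (Pbk), 7 (Kifc5b), 5 (Ncapg), 2 (Kif18a) and 6 (Lmnb1) of the 19 fits that left out 1 library.

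By the fitted responses of the 68 genes, 24 went up at least 1.5-fold in both genotypes with the larger change in null. Another 15 did so with the smaller change in null. Another 9 went up in null only and 6 in wild type only. In 3 the genotypes moved at least 1.5-fold in opposite directions, and those were Gm47079, Gdf3 and Vmn2r29, all at low levels. With no limit on size the fitted responses had opposite signs in 15 of the 68, Pts, Nectin1 and Clec9a among them. The genotypes differed at least 1.5-fold after exposure but not before it in 24 genes, of which 21 had a larger null response. They differed before exposure but not after it in 14, of which 9 had a smaller null response. Both differences were present in 20, and neither in 10. These counts describe the same contrast that made the calls and were not tested. They also depend on the TMM scaling, with factors of 1.11 to 1.17 in naive and 0.865 to 0.955 in exposed libraries. Changes in TPM can be smaller. Unc45a, counted as up in both, went from 31.9 to 34.6 TPM in wild type (fitted log2 response 0.64). Ncapg, counted as up in wild type only, went from 6.23 to 7.49 TPM there (fitted 0.73). A response per library was taken as each exposed library minus the naive mean of its genotype. All 68 genes had such responses that did not overlap between the genotypes, as had 1532 of all tested genes (7.47%). Naive and exposed mice were not paired, and the spread of naive libraries does not enter these values.

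Some calls rest on very low levels or on 1 genotype. Ppfia4, a liprin scaffold gene, was under 0.5 TPM in every null library and at 13.7 to 15.5 TPM in wild type naive and 2.78 to 3.85 TPM in wild type exposed libraries (1.35, SE 0.28, adjusted p = 0.039). Its call held in 7 of the 19 fits that left out 1 library and in 9 of the 15 other settings. It lies within 1 Mb of Ppp1r12b and Gm26642, which were also called. Gdf3, Aanat and Cfap57 had at least 1 group at 0 counts in every library, so their fitted interactions depend on the prior count and are no measure of size. Their highest group means, and that of Vmn2r29, were under 1 TPM. Gdf3, which encodes a secreted ligand of the TGF-beta family, was at 0.318 to 1.08 TPM in exposed wild type libraries and at 0 counts in every exposed null library. The calls held in 19 (Gdf3), 19 (Aanat), 16 (Cfap57) and 4 (Vmn2r29) of the 19 fits. They held in 10 (Gdf3), 7 (Aanat), 6 (Cfap57) and 4 (Vmn2r29) of the 15 other settings. Of the 68 called genes 30 had another called gene within 1 Mb, 7 of them at the ends of X and Y. The matching share over all tested genes was not computed, and some neighbours, such as Icam1 and Gm47079, overlap. Within 10 Mb of Icam1, 3 of 153 tested genes were called (1.96%, against 0.332% of all tested genes), with a median of -0.03 over the window. All 3 were lower in null (Icam1, Gm47079 and the amino acid transporter gene Slc36a4). Slc36a4 had an interaction of -0.48, SE 0.10, adjusted p = 0.043, and its call held in 5 of the 19 fits.

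The other lists are described by their counts and medians. Over all tested genes 0.332% were called, 45.7% were above 0 and 9.85% had an unadjusted p under 0.05. Of 37 genes for partners of ICAM-1 and for its linkers to the cytoskeleton, 0 were called by edgeR (7 at an unadjusted p under 0.05) and the median was -0.07. The beta2 integrin genes Itgal (-0.02, SE 0.13, adjusted p = 0.99) and Itgb2 (-0.11, SE 0.12, adjusted p = 0.84) had values near 0. The linker Ezr had 0.23, SE 0.13, adjusted p = 0.58. Of 44 phagosome and lysosome genes 0 were called, 9 had an unadjusted p under 0.05 and the median was -0.07. Of 31 TLR and inflammasome genes 0 were called, 7 had an unadjusted p under 0.05 and the median was -0.06. All 13 mitochondrially encoded genes were below 0 (-0.79 to -0.41, median -0.59), 8 had an unadjusted p under 0.05 and 0 were called. All 42 cytosolic ribosomal protein genes were above 0 (0.00 to 0.31, median 0.17), 4 had an unadjusted p under 0.05 and 0 were called. These members share a library and a scaling, so they are not separate observations.

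**Figure D4:**
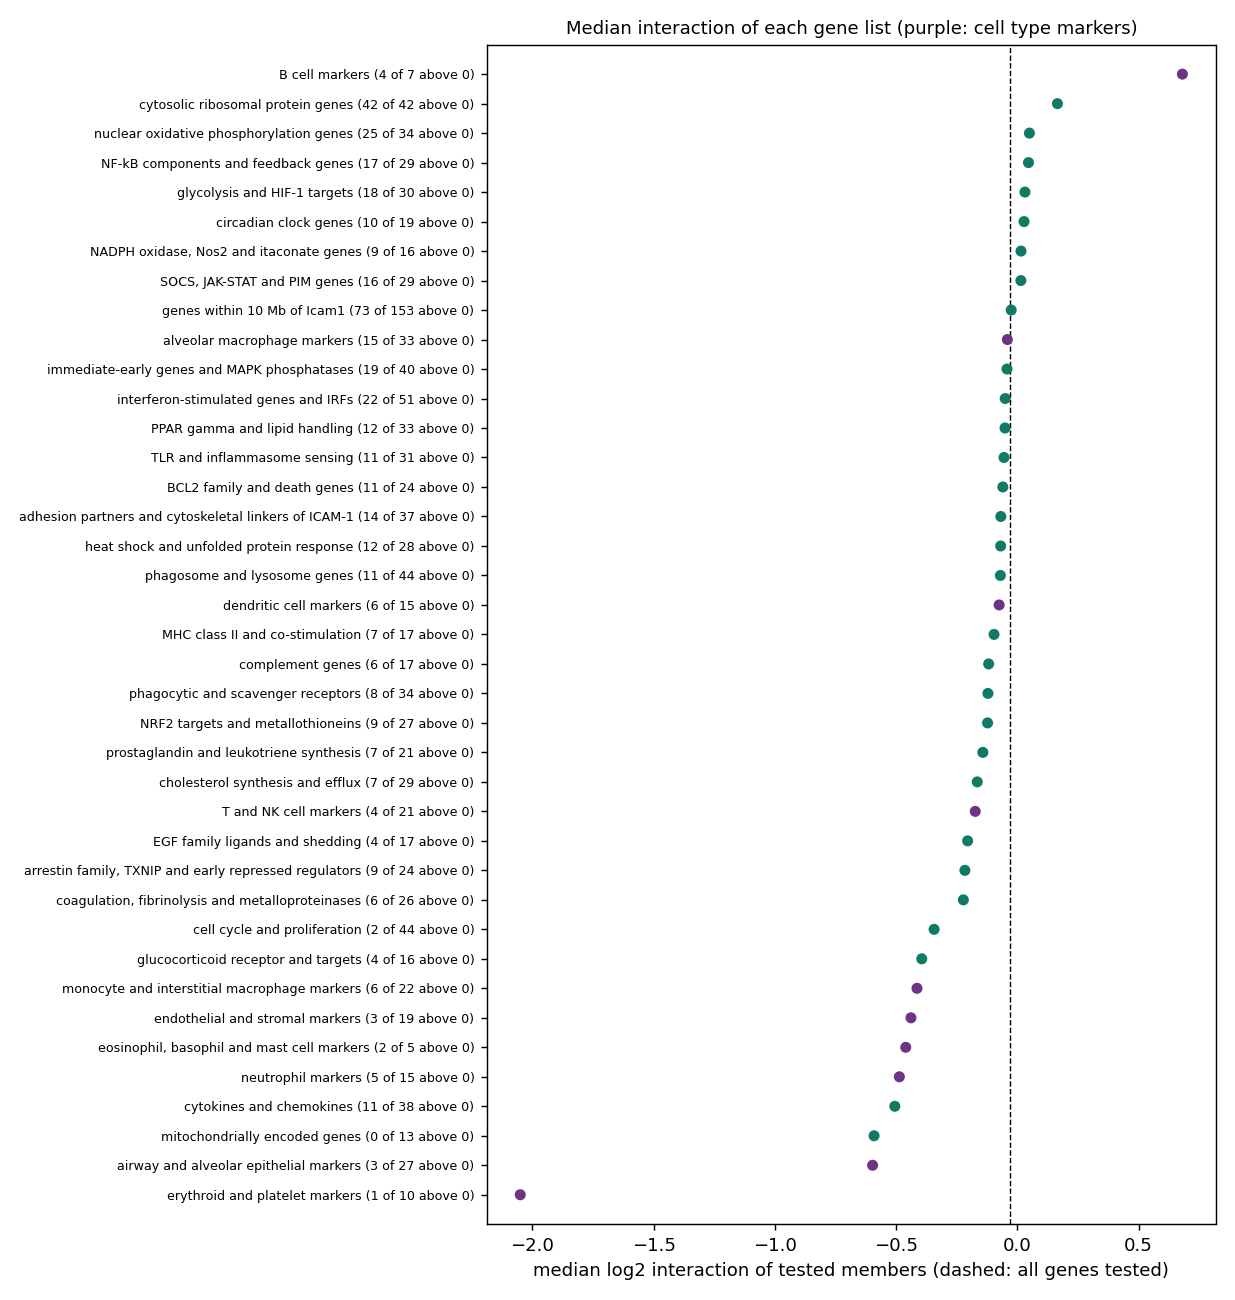
Median log2 interaction (x axis) of the tested members of each gene list, with the number above 0 in each label. Green points are pathway lists, purple points cell type markers and the dashed line the median of all 20501 genes. Erythroid markers (-2.05), epithelial markers (-0.60), mitochondrially encoded genes (-0.59) and cytokines (-0.51) lie lowest.

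Markers of red cells and epithelium had the lowest list medians, with 0 members called by edgeR in either list. Over all tested genes 0.332% were called, 11122 of 20501 were below 0 and 9.85% had an unadjusted p under 0.05. The erythroid and platelet markers of naive libraries summed to 151 to 424 TPM in wild type and 111 to 365 TPM in null mice, which overlapped. The epithelial markers summed to 1136 to 1481 TPM and 746 to 1009 TPM, with no overlap. Of 10 erythroid and platelet markers 9 were below 0 (median -2.05) and 5 had an unadjusted p under 0.05. The beta globin gene Hbb-bs stood at 62.8 ± 46.0 TPM before and 418 ± 280.0 TPM after exposure in wild type, and went from 53.0 ± 29.7 to 59.1 ± 27.9 TPM in null libraries (-2.57, SE 0.71, adjusted p = 0.16). Of 27 epithelial markers 24 were below 0 (median -0.60) and 10 had an unadjusted p under 0.05. The club cell gene Scgb1a1 stood at 247 ± 41.5 TPM before and 1266 ± 735 TPM after exposure in wild type, and went from 205 ± 39.9 to 439.7 ± 53.9 TPM in null libraries (-1.32, SE 0.38, adjusted p = 0.18). With epithelial and erythroid scores as covariates 33 genes were called, 26 with a larger and 7 with a smaller null response. The exposed groups did not overlap in either sum, so such a fit cannot separate genotype from other cells. The part of these cells in the called differences was not tested. T and NK cell markers (21 tested, 0 called by edgeR, median -0.17) summed to 899 to 1174 TPM over all wild type and 634 to 835 TPM over all null libraries, naive and exposed. Of 15 tested neutrophil markers 0 were called by edgeR (median -0.49), and the list summed to 599 to 853 TPM over all 19 libraries. Its member Elane was at 0 in all 19 libraries. Eosinophil, basophil and mast cell markers summed to 35.5 to 90.4 TPM, with Mcpt4, Fcer1a, Il5ra and Ms4a2 at 0 in all 19 libraries.

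**Figure D5:**
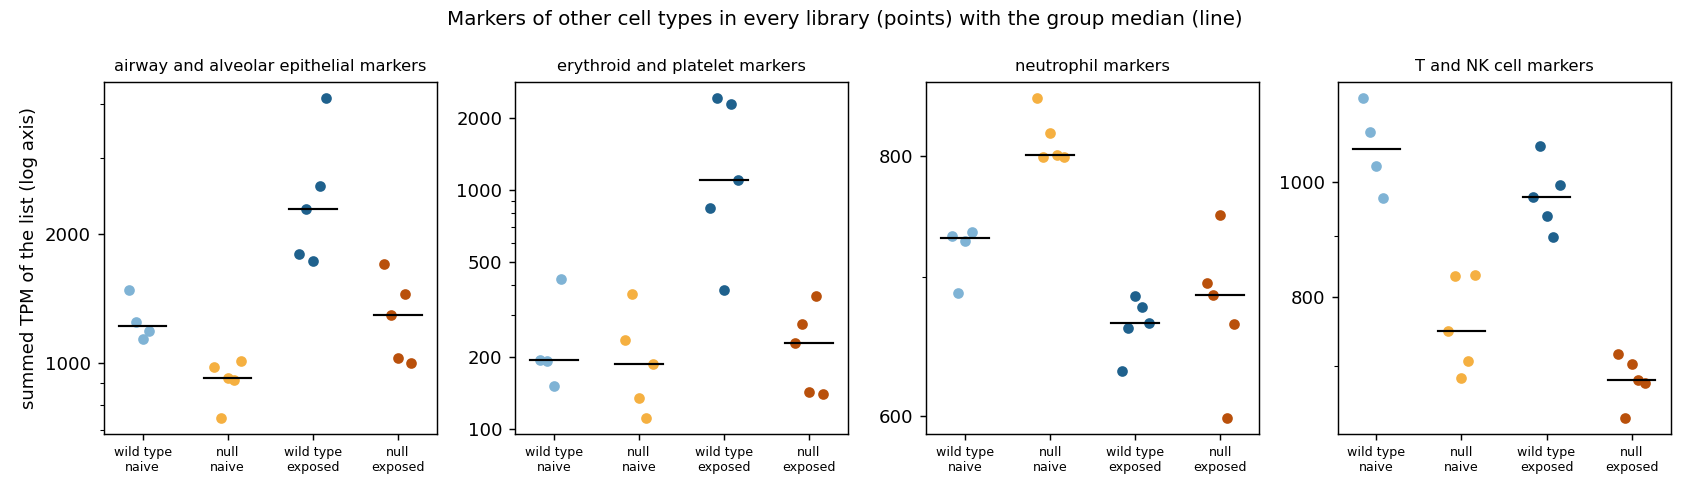
Summed TPM (log axis, scaled for each list) of markers of 4 other cell classes in the 4 groups. Points are libraries and lines are group medians. Erythroid and epithelial sums of exposed wild type libraries lie above those of exposed null libraries, and T and NK cell sums are lower in null than in wild type libraries.

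Genes just beyond the threshold included the following. Zc3h12c, of the regnase family of RNA-degrading proteins, had -1.37 (SE 0.30, adjusted p = 0.0505). Inhba, a subunit of activin, had -1.66 (SE 0.37, adjusted p = 0.0626). Pfkm, the muscle form of phosphofructokinase, had 1.25 (SE 0.28, adjusted p = 0.0561). Within the threshold, the calls nearest to it were Tssc4, Kif18a, Klrb1b and Nampt, each with an adjusted p = 0.047. Nampt, named here for that place, recycles nicotinamide into NAD. It went from 64.1 ± 6.89 to 275 ± 26.2 TPM in wild type and from 104 ± 11.1 to 304 ± 26.2 TPM in null mice (-0.59, SE 0.13, adjusted p = 0.047), and its call held in 4 of the 19 fits.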

How the data were processed

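Lavage cell RNA from 19 mice in 4 groups was sequenced as pairs of 150 bases after poly(A) selection, with 20 M reads planned, per the labels' protocols. STAR, StringTie version 2 and the build GRCm39 are listed in the submitters' processing notes, and no source used here gives strand or counting options. The deposited tables hold estimated counts, as whole numbers that the authors did not scale for depth, and TPM, which the authors scaled for length and to the same total in each library. Gene coordinates are those of the deposited tables.

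Estimated counts were tested with edgeR 4.0.16 (R 4.3.3) in a model of 4 group means over all 19 libraries, with TMM scaling and filterByExpr (minimum count 10, total 15). The interaction and both responses come from that fit, so fold changes are on the count scale and levels are TPM. The TMM factors were lower in exposed than in naive libraries, so a fitted response can lie above the change in TPM. SDs are over the libraries of a group. The method was tested on simulated counts. Mice are numbered in the labels with no mention of common litters or days, and p-values measure only the spread between these samples, which may in part be technical. Same-numbered libraries did not deviate together (correlations -0.05 to 0.07 over 27 pairs). No libraries were identical.

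Named genes are the 15 largest called interactions in each direction with at least 5 TPM in the highest group, the 10 smallest p, up to 4 called members of each of 39 lists, and Icam1. The lists and members were chosen with earlier results of these data known. The alternatives were other scalings, filters, tools (DESeq2 1.42.0, limma 3.58.1, also on log2(TPM + 1) and log2(TPM + 0.1)), a replicate block, thinning, marker covariates, and leaving out libraries or genes near Icam1.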

Additional observations from a re-analysis of the deposited data

Results flagged for a closer look

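The interaction itself is a difference between the genotypes in the response to the same exposure, and it passed for 68 genes in edgeR's test. Within groups, 140 sets of 4 or 5 values of named genes were checked for a library far from the others, and 4 stood apart. Chance alone gives about 1 in 20. Null naive library 2 held Stk19 at 40.3 TPM, below the other null naive libraries. Null exposed library 1 held Fam167a at 8.27 TPM, above the rest of its group. Wild type naive library 3 held Pbk at 8.96 TPM and wild type exposed library 2 held Clec9a at 3.64 TPM, each above the rest of its group.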

How the results depend on the processing

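The number of calls depended on the processing, while 0 of the 68 calls reversed under any of the 34 alternatives. The alternatives reuse the libraries by which the genes were called, so the lack of reversals is no test of direction. Of 1188 values of the 35 named genes under these alternatives 0 reversed and 352 no longer passed. Against 68 calls (37 higher, 31 lower in null), DESeq2's Wald test gave 240 (107 and 133), limma voom 25 (15 and 10), limma on log2(TPM + 1) 110 (75 and 35), and no filter on low counts 38 (21 and 17), where more genes were tested. Leaving out the shallow wild type naive libraries 1, 2 and 3 gave 10 calls (8 and 2), with the lone library assumed to vary like the other groups. Epithelial and erythroid scores as covariates gave 33 (26 and 7), and neutrophil and T and NK scores 41 (28 and 13). The cause of these changes in number was not tested. Leaving out 1 library gave 34 to 82 calls (19 to 47 higher, 14 to 48 lower), and 29 calls held in all 19 such fits. The total was 34, 34 and 37 without wild type naive library 1, 2 or 3. It was 45, 43 and 43 without null naive library 1, 2 or 4, and 43 without wild type exposed library 4 or null exposed library 2. Lower calls numbered 48 without wild type naive library 4 and 20 without null exposed library 4. The replicate block gave 52 calls (27 and 25), of which 40 were among the 68, but same-numbered samples shared only a number. The other scalings, the other filter, thinning and log2(TPM + 0.1) gave 58 to 72 calls. At this depth a log2 interaction had a median SE of 0.31, which limits what could be called.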
